A study of Mus musculus with 8 samples.

Results

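The genes described here encode 7 subunits of the GABA-A receptor: the alpha subunits Gabra2, Gabra3, Gabra4 and Gabra5, the beta subunits Gabrb1 and Gabrb2, and the delta subunit Gabrd. They were taken by symbol from a table of 54446 gene identifiers, and all 7 were found and passed the filter on low counts. The other 12 mouse GABA-A receptor subunit genes are summarised further on. Poly(A) RNA of mouse medial prefrontal cortex was compared between 4 libraries whose titles say Ino80e overexpression and 4 titled as wild type. Ino80e encodes a component of INO80, a remodeller of chromatin, and lies in a schizophrenia risk locus, and per the design text its expression was altered with an adeno-associated virus injected into this region. The labels used here do not state whether wild-type mice were injected with a control virus, which promoter the virus carried, the strain or age of the mice, or that each library is a separate mouse. The p-values therefore measure library-to-library spread, part of which may be technical.

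The libraries labelled overexpression do not all show the raised target. Ino80e stood at 74.1, 23.4, 23.3 and 45.04 CPM (the usual depth-scaled unit of read counts) in overexpression replicates 1 to 4. It stood at 22.3, 19.5, 25.5 and 20.7 CPM in wild-type replicates 1 to 4. Exons of Doc2a and Hirip3, both on the opposite strand, overlap 14.4% and 1.96% of the exon length of Ino80e. These levels are uncertain, since the labels used here do not state the strand setting of the counting. The share of exon length does not bound the share of counts concerned. Overexpression replicates 2 and 3 were inside the wild-type range, and the difference over all libraries was not past the threshold (exact two-sided permutation p = 0.114, smallest possible 0.0286). Each comparison below is therefore of the libraries labelled overexpression with wild type, and the fold changes of the 7 genes, their ratios and the counts over the other GABA genes are also given without replicates 2 and 3. Values with a GC correction and values of single genes other than the 7 include all libraries. Markers of cortical excitatory neurons (summed level 7287 to 8352 CPM in overexpression, 6833 to 8279 in wild type) and of cortical interneurons (879 to 971 and 893 to 964 CPM) were abundant in every library, while the cerebellar subunit gene Gabra6 was at or near 0.

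GABA-A receptors are pentameric chloride channels opened by GABA, the main inhibitory transmitter of the cortex. Most are built from alpha and beta subunits together with a gamma or a delta subunit. Receptors with alpha2 or alpha3 and a gamma subunit gather at synapses and give brief inhibition, whereas those with alpha4 and delta, and many with alpha5, lie outside synapses and give a steady inhibitory current. The delta subunit also makes receptors sensitive to neurosteroids. Subunit genes lie in clusters: on GRCm38, Gabra2, Gabra4 and Gabrb1 lie together on chromosome 5, Gabra5 on chromosome 7, Gabrb2 on chromosome 11, Gabrd on chromosome 4 and Gabra3 on chromosome X.

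Gabra4 and Gabrb1 start head to head, and the sequences before both starts are shown because each lies inside the other gene, so that counts there depend on strand. In the GENCODE annotation Gabra4 (chr5:71569749-71658308, minus strand) and Gabrb1 (chr5:71658113-72149037, plus strand) overlap by 196 bases, of which 46 are exonic in both. These 46 bases are 0.756% of the exon length of Gabra4 and 0.332% of that of Gabrb1. The 250 bases before each start, from RefSeq on GRCm38.p6, are given 5′ to 3′ on the gene's own strand, chr5:71658309-71658558 for Gabra4 and chr5:71657671-71657920 for the first start of Gabrb1. Capitals mark a GC box (GGGCGG on either strand).
Gabra4: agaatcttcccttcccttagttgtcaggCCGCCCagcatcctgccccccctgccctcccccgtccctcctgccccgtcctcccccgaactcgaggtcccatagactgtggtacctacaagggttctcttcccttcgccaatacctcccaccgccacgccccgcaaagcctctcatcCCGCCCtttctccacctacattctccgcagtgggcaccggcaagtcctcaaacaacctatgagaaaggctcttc
Gabrb1: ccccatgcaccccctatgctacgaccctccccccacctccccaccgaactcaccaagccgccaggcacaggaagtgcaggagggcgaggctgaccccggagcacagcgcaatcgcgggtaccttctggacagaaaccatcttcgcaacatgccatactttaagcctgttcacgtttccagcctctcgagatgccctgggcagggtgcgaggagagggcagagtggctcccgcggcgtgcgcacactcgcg
The window of Gabra4 holds 61.2% GC and that of Gabrb1 64.4%, against a median of 52.4% over 32851 promoter windows. A GC box was found before Gabra4 and not before Gabrb1, and 32.7% of all windows hold one. Neither window holds a TATA box (TATAAA, in 12.4% of all windows), a cyclic AMP response element (TGACGTCA, 1.55%) or an EGR site (GCGTGGGCG, 0.536%), each searched on both strands. Of the 7 genes, 6 have a window in the RefSeq table, and Gabrd has none. Of the exon length of Gabra5 (chr7:57407672-57510059, minus strand), 4.98% overlaps exons of an antisense transcript, Gm9962. The counts of Gabra4, Gabrb1 and Gabra5 are uncertain there, since the labels used here do not state the strand setting of the counting. A share of exon length does not bound the share of counts.

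Relative to exon length, Gabra3 was the most abundant of the 7 in wild type, at 52.2 ± 5.32 CPM per kb of annotated exon (SD, n = 4). It was followed by Gabrb2 at 31.8 ± 3.12, Gabrd at 21.7 ± 1.13, Gabra5 at 18.9 ± 1.50, Gabra4 at 17.8 ± 2.18, Gabrb1 at 13.1 ± 1.18 and Gabra2 at 5.48 ± 0.922 CPM per kb. The wild-type ranges of neighbours in this order did not overlap, except those of Gabra5 and Gabra4. The length chosen matters for this order. Per kb of the longest annotated transcript, Gabra4 (26.3 ± 3.22) stood above Gabrd (23.1 ± 1.20) and Gabra5 (21.1 ± 1.67), with overlapping wild-type ranges between Gabra4 and Gabrd and between Gabrd and Gabra5. On that length Gabra3, at 55.96 ± 5.70, still had the highest mean and Gabra2, at 7.16 ± 1.20, the lowest, and Gabrb2 stood at 50.7 ± 4.97. The ranges of Gabra3 (49.8 to 61.7) and Gabrb2 (46.7 to 57.8) then overlapped, and in wild-type replicate 4 Gabrb2 stood slightly above Gabra3. Each gene had between 1652 and 11493 counts in every library.

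None of the 7 genes passed the test between the groups (edgeR, adjusted p under 0.05), where 0.0340% of all 17636 genes tested did, 6 genes in all. The 6 alpha and beta genes had lower values in the libraries labelled overexpression, by 7.05% to 16.1%, and Gabrd was 9.04% higher, where 49.5% of all genes were lower. The median log2 fold change of the 7 was -0.13, against 0.0016 over all genes tested. At an unadjusted p under 0.05 there were 4 of the 7, all lower, where 10.7% of all genes reached that level and 5.43% did so as lower. DESeq2, which called 0.250% of its genes, also called none of the 7, with 4 at an unadjusted p under 0.05, where 11.4% of all genes reached it. Limma-voom, which called 0.0113%, called none either, with 2 at that level, where 10.5% of all genes reached it. The groups overlapped for all 7 genes. In bulk tissue, fewer cells of a type and less RNA per cell cannot be told apart.

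**Figure D1:**
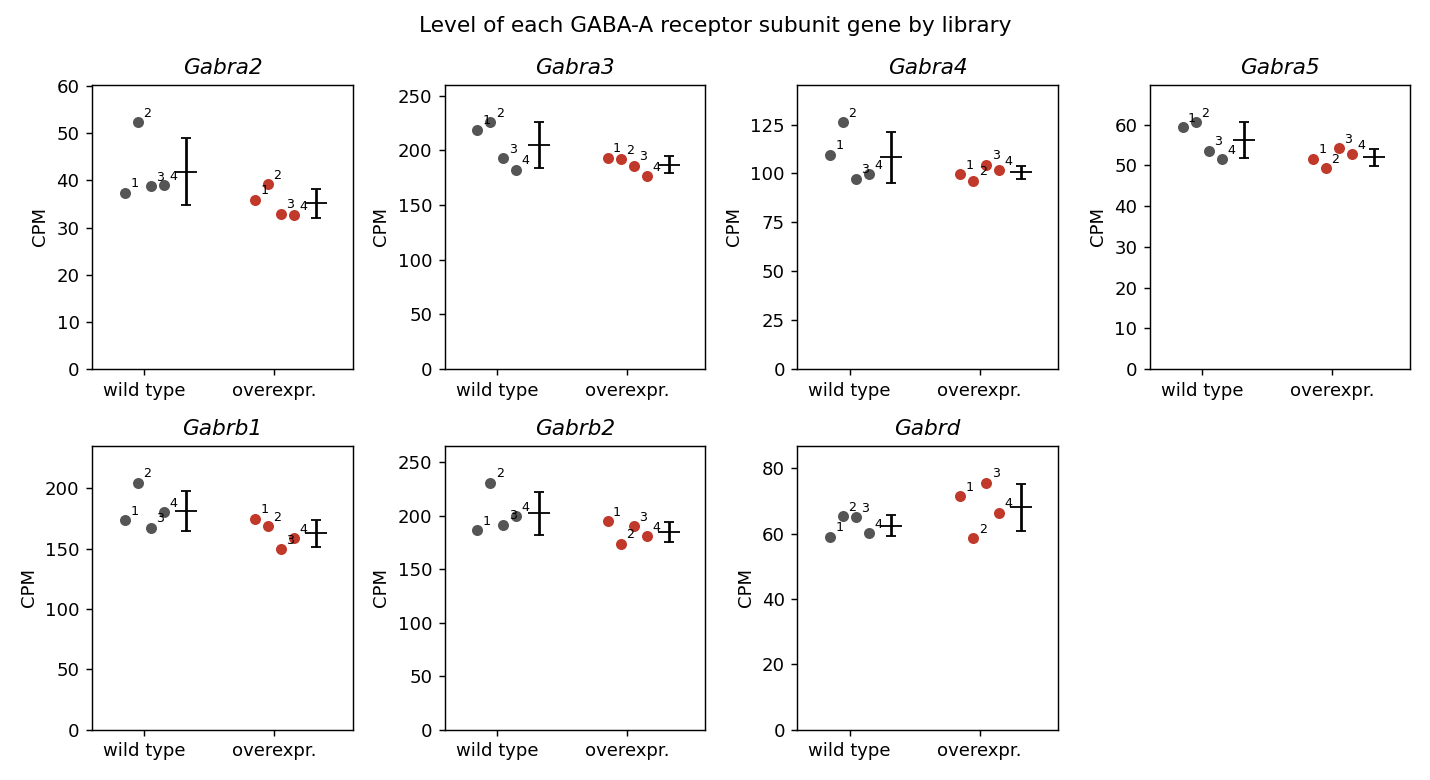
Level of each of the 7 subunit genes in CPM (y axis, from 0) in the 4 wild-type libraries (grey) and the 4 libraries labelled overexpression (red); digits are replicate numbers, and the bar is the mean with its SD. Wild-type replicate 2 is the highest library for all genes but Gabrd, and the groups overlap in every panel.

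Gabra2, whose product sits at synapses and on the axon initial segment of pyramidal neurons, stood at 35.9, 39.2, 32.9 and 32.7 CPM in overexpression replicates 1 to 4. In wild-type replicates 1 to 4 it stood at 37.4, 52.4, 38.8 and 38.9 CPM. Wild-type replicate 2 was high, and overexpression replicate 2 lay within the wild-type range. The log2 fold change was -0.25 (SE 0.098, 95% interval -0.46 to -0.044, adjusted p = 0.40), the largest of the 7 in size.

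Gabra3, an alpha subunit of synaptic receptors, stood at 193, 192, 186 and 176 CPM in the libraries labelled overexpression. In wild type it stood at 219, 226, 193 and 182 CPM. Wild-type replicates 1 and 2 were above every library labelled overexpression, and wild-type replicates 3 and 4 were not. The log2 fold change was -0.13 (SE 0.061, 95% interval -0.26 to -0.0061, adjusted p = 0.45).

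Gabra4, the usual alpha partner of delta in the forebrain, stood at 99.7, 96.4, 104 and 102 CPM in overexpression and at 109.6, 126, 97.2 and 99.6 CPM in wild type. Wild-type replicates 3 and 4 lay among the libraries labelled overexpression. The log2 fold change was -0.11 (SE 0.067, 95% interval -0.25 to 0.034, adjusted p = 0.57). Gabra5, which carries much of the steady inhibition of pyramidal dendrites, stood at 51.7, 49.3, 54.3 and 52.8 CPM in overexpression and at 59.4, 60.7, 53.6 and 51.5 CPM in wild type. As with Gabra3, wild-type replicates 1 and 2 were high and replicates 3 and 4 were not (log2 fold change -0.11, SE 0.061, 95% interval -0.24 to 0.012, adjusted p = 0.52).

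Gabrb1, a beta subunit needed with alpha to form the GABA binding site, stood at 175, 168, 149 and 159 CPM in overexpression and at 173, 205, 167 and 180.2 CPM in wild type. Overexpression replicates 3 and 4 were below every wild-type library, and replicates 1 and 2 were not. The log2 fold change was -0.16 (SE 0.062, 95% interval -0.28 to -0.027, adjusted p = 0.39). Gabrb2, an abundant beta subunit of adult forebrain, stood at 195, 174, 190.0 and 181 CPM in overexpression and at 186, 231, 192 and 199.6 CPM in wild type. Only wild-type replicates 2 and 4 were above all libraries labelled overexpression (log2 fold change -0.13, SE 0.060, 95% interval -0.25 to -0.0039, adjusted p = 0.46).

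Gabrd, the delta subunit of extrasynaptic receptors, was the only one of the 7 with a positive fold change. It stood at 71.4, 58.6, 75.6 and 66.5 CPM in overexpression and at 59.1, 65.4, 65.1 and 60.2 CPM in wild type. Overexpression replicates 1, 3 and 4 were above every wild-type library, and replicate 2 was below every one. The log2 fold change was 0.12 (SE 0.067, 95% interval -0.013 to 0.26, adjusted p = 0.52). It was 0.19 without overexpression replicate 2 and 0.070 without overexpression replicate 3 (adjusted p = 0.28 and adjusted p = 0.81).

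The lower alpha and beta values turned in good part on wild-type replicate 2, the highest library for 6 of the 7 genes. Without it the log2 fold change of Gabra2 was -0.13 (adjusted p = 0.71), that of Gabra4 was -0.025 (adjusted p = 0.94) and that of Gabrb2 was -0.062 (adjusted p = 0.79). Gabra3 stood at -0.085, Gabra5 at -0.078, Gabrb1 at -0.096 and Gabrd at 0.14 without that library. The median of the 7 was then -0.078, against -0.15 without wild-type replicate 3 and -0.12 without overexpression replicate 4. At an unadjusted p under 0.05 (edgeR) there were 0, 6 and 0 of the 7 in these 3 fits. Of all genes tested, 1335 of 18048, 2477 of 17975 and 1684 of 17952 reached that level. Without overexpression replicates 1, 2 and 3 there were 4, 4 and 1 of the 7. The totals were 1753 of 17977, 2033 of 18024 and 1391 of 17991 genes. Without wild-type replicates 1 and 4 there were 3 and 5 of the 7, with totals of 1589 of 18049 and 1759 of 18005. Leaving out wild-type replicate 2, the highest library for 6 of the 7, shrinks those 6 fold changes by construction. Without overexpression replicates 2 and 3, whose Ino80e was at the wild-type level, the log2 fold changes were -0.29, -0.15, -0.10 and -0.11 for Gabra2, Gabra3, Gabra4 and Gabra5. They were -0.12 for Gabrb1, -0.11 for Gabrb2 and 0.14 for Gabrd. No gene of the 7 passed in any of these fits.

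**Figure D2:**
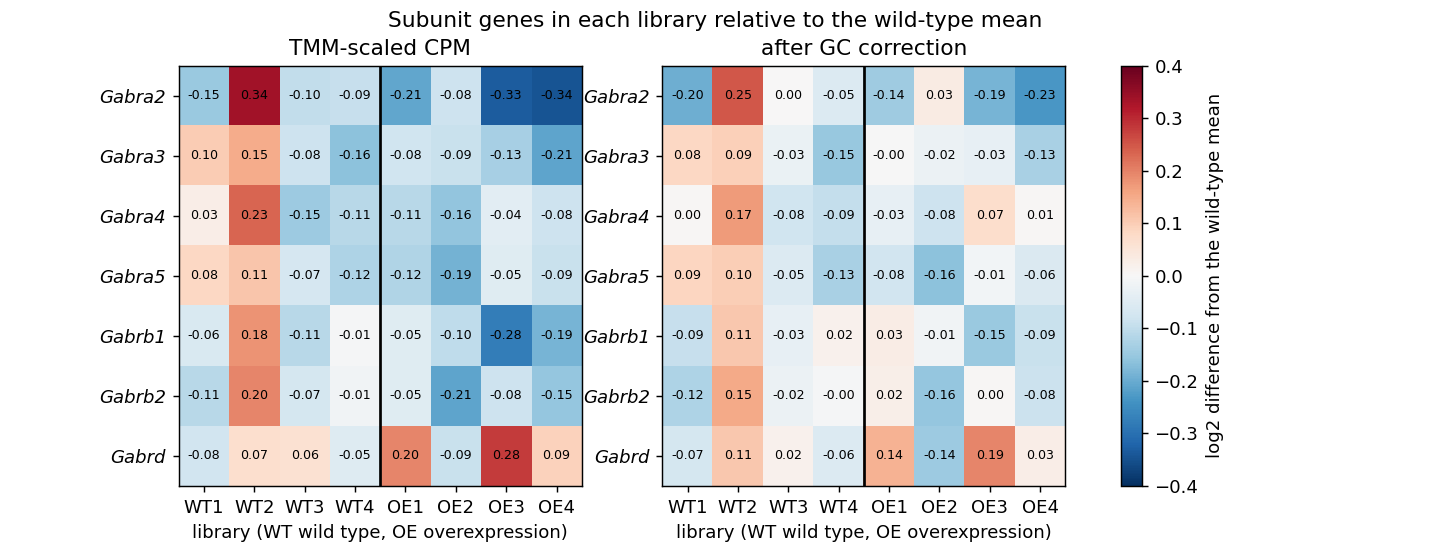
Log2 difference of each subunit gene (rows) from its wild-type mean in each library (columns, wild type left of the line), from TMM-scaled CPM and after a correction for GC content; the number in each cell is its value. Wild-type replicate 2 is the highest column for all genes but Gabrd in both panels, with 0.34 for Gabra2 before and 0.25 after the correction.

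The fold changes of the subunit genes went with the GC content of their transcripts at the ends of its range, and less so in the middle. Gabra4, at 42.2% GC, had the smallest fold change of the alpha and beta genes (-0.105). The GC content of the longest transcript was 38.4% for Gabra2, 40.93% for Gabrb1, 42.2% for Gabra4, 43.1% for Gabra3, 44.02% for Gabrb2, 47.1% for Gabra5 and 54.8% for Gabrd. AT-rich transcripts in general were lower in the libraries labelled overexpression. Among genes of at least 5 CPM, 90% of 660 genes at or under 40% GC were lower (median log2 fold change -0.11), as were 85.6% of 2243 genes between 40% and 45% (median -0.088). Between 45% and 50% GC the median was -0.034, between 50% and 55% it was 0.032, and above 55% it was 0.090. Each subunit gene described stood further from 0 than the median of its GC range, from Gabra2 at -0.25 to Gabra4 at -0.105 and Gabrd at 0.12. The slope of log2 CPM on GC, per 10 points and relative to the mean of all libraries, was 0.042, 0.035, 0.090 and 0.053 in overexpression replicates 1 to 4. In wild-type replicates 1 to 4 it was -0.069, -0.13, 0.021 and -0.045, and wild-type replicate 2 had the most negative slope.

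**Figure D3:**
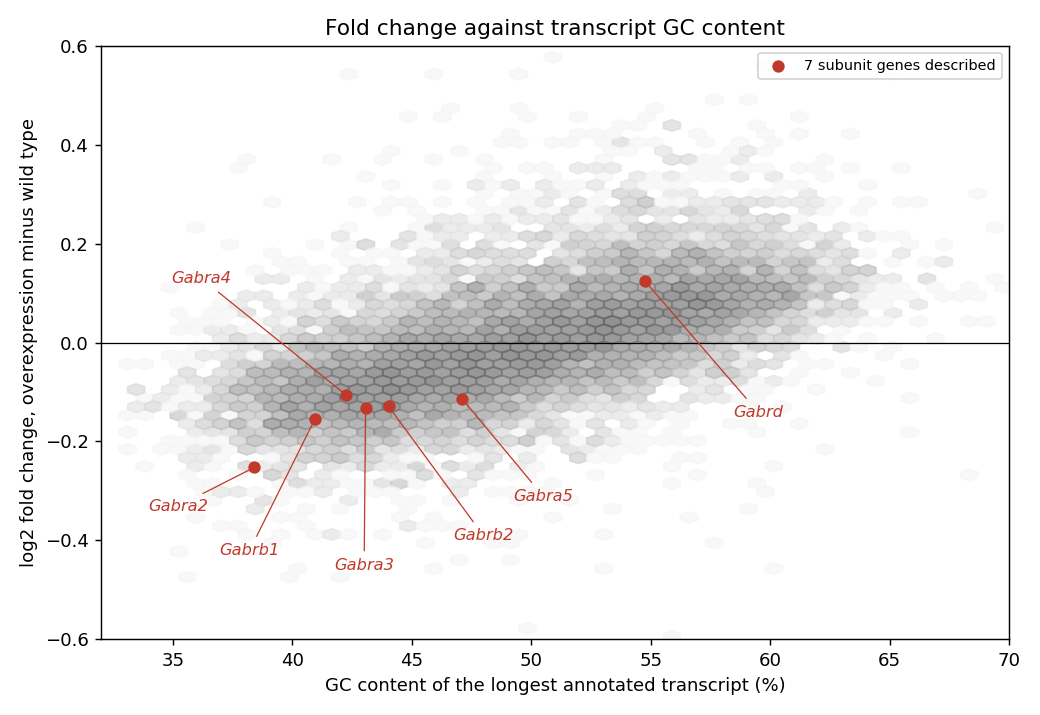
Log2 fold change, overexpression minus wild type (y axis), against transcript GC content in percent (x axis); grey hexagons are darker where more of the 11326 genes of at least 5 CPM fall, 23 genes beyond ±0.6 are not drawn, and red points are the 7 subunit genes. Gabra2, at 38.4% GC, and Gabrd, at 54.8%, sit at opposite ends of the 7 and on opposite sides of 0.

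After a correction for GC content within each library, all 7 fold changes kept their sign and were smaller. Every library labelled overexpression had a higher GC slope than every wild-type library. The correction therefore also removes any difference between the groups that follows GC content. Whether the GC trend is technical was not tested. The log2 fold change was -0.14 for Gabra2 (SE 0.081, 95% interval -0.31 to 0.032), -0.049 for Gabra3 (SE 0.053), -0.013 for Gabra4 (SE 0.056) and -0.079 for Gabra5 (SE 0.058). It was -0.056 for Gabrb1 (SE 0.051), -0.055 for Gabrb2 (SE 0.055) and 0.059 for Gabrd (SE 0.063, 95% interval -0.073 to 0.19). The intervals of all 7 held 0, and the adjusted p was at least 0.97 for each, where 0.0284% of all genes passed. None of the 7 had an unadjusted p under 0.05 after the correction, where 5.10% of all genes did. Wild-type replicate 2 was still the highest library for 6 of the 7.

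**Figure D4:**
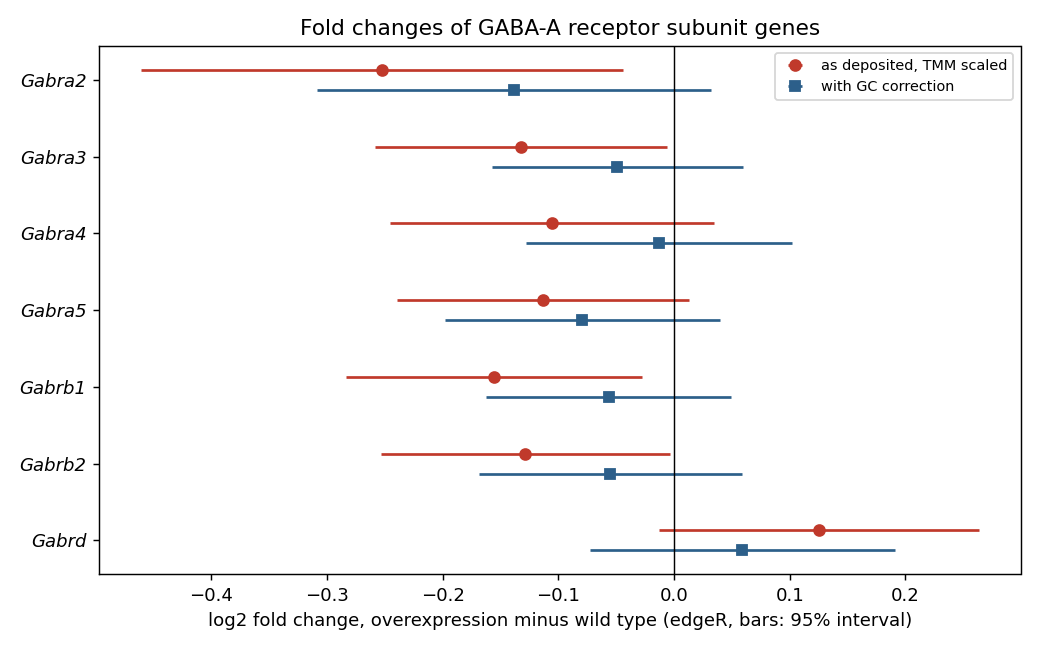
Log2 fold change, overexpression minus wild type, with its 95% interval (x axis) for the 7 subunit genes, from TMM-scaled counts (red) and with the GC correction (blue). Gabrd is the only one above 0, and every blue interval holds 0.

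Ratios of counts between subunit genes within a library, which need no scaling, did not separate the groups. The ratio of Gabrd to Gabra4, partners in extrasynaptic receptors, was 0.717, 0.608, 0.725 and 0.654 in overexpression replicates 1 to 4 and 0.539, 0.518, 0.669 and 0.605 in wild type. Overexpression replicates 1 and 3 were above every wild-type library, and the others overlapped. The log2 difference was 0.22 (exact two-sided permutation p = 0.114, adjusted p = 0.343 over the 3 ratios), and 0.065 with the GC correction (exact permutation, adjusted p = 0.986). The ratio of Gabra5 to Gabra2 ran from 1.26 to 1.65 in overexpression and from 1.16 to 1.59 in wild type, a log2 difference of 0.13 (exact permutation p = 0.371, adjusted p = 0.557). That of Gabrb1 to Gabrb2 ran from 0.786 to 0.969 and from 0.873 to 0.930, a log2 difference of -0.029 (exact permutation p = 0.743, adjusted p = 0.743). The smallest p that 4 against 4 libraries allow is 0.0286. Without overexpression replicates 2 and 3 the log2 differences were 0.24, 0.17 and -0.016 for these ratios in the same order. No p under 0.05 was possible there (exact permutation p = 0.200, p = 0.333 and p = 0.667, smallest possible 0.0667).

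Of the 12 other subunit genes, 8 passed the filter on low counts, 7 of them lower and 1 higher, where 49.5% of all genes were lower. None passed the test. At an unadjusted p under 0.05 (edgeR) there were 3 of the 8, where 10.7% of all genes reached that level. Their median log2 fold change was -0.15, and -0.051 with the GC correction. Without overexpression replicates 2 and 3, 9 passed the filter, 8 of them lower and 1 higher, and again none passed the test. Of these 9, 2 were at an unadjusted p under 0.05 (edgeR), where 7.08% of all genes were. The gamma subunit gene Gabrg1 stood at 19.95 ± 2.41 CPM against 22.0 ± 3.36 (log2 fold change -0.14, SE 0.11, and -0.018 with the GC correction), and its transcript holds 35.3% GC. Gabrg3, another gamma subunit gene, stood at 42.7 ± 2.67 against 47.5 ± 4.29 CPM (log2 fold change -0.15, SE 0.068, and -0.068 with the GC correction), and its transcript holds 42.9% GC. Gabre, Gabrq and Gabrr2 passed the filter with means under 1 CPM, and Gabra6, Gabrr1 and Gabrr3 were lower still and were not tested. Gabrp had 0 counts in every library, which allows up to 0.067 CPM in the smallest one (3 counts).

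The rest of the GABA pathway was described by 6 lists with 55 genes. Of these, 54 were tested, 20 higher and 34 lower, and none passed the test. At an unadjusted p under 0.05 there were 7 of the 54, near the 10.7% of all genes at that level. Without overexpression replicates 2 and 3, 24 were higher and 30 lower, none passed, and 6 were at an unadjusted p under 0.05, where 7.08% of all genes were. For synthesis, packaging, uptake and breakdown of GABA, 3 of 8 genes were higher and 5 lower. The vesicular GABA transporter gene Slc32a1 stood at 0.14 (log2 fold change, SE 0.076), and at 0.026 with the GC correction; its transcript holds 61.9% GC. For GABA-B receptors and their auxiliary subunits, 1 of 5 was higher, and the auxiliary subunit gene Kctd8 stood at 4.32 CPM against 5.74 (log2 fold change -0.41, SE 0.16, adjusted p = 0.38, and -0.40 with the GC correction). Of 14 genes of the inhibitory postsynapse, 6 were higher and 8 lower, with the gephyrin gene Gphn, whose product anchors receptors, at -0.13 (SE 0.057) and Insyn1 at 0.14 (SE 0.052). With the GC correction Gphn stood at -0.11 and Insyn1, whose transcript holds 62.8% GC, at 0.014. Of 14 assembly and trafficking genes, 5 were higher and 9 lower, with Trak2, a motor adaptor, at -0.097 (SE 0.046) and at -0.069 with the GC correction.

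Neuronal chloride transport sets the driving force of these receptors. Of its 7 genes, 2 were higher and 5 lower. The kinase gene Wnk3 stood at 41.6 CPM against 49.3 (log2 fold change -0.25, SE 0.070, adjusted p = 0.31) and Stk39, which encodes the kinase SPAK, at 71.5 against 80.03 CPM (log2 fold change -0.16, SE 0.053, adjusted p = 0.31). With the GC correction they stood at -0.15 and -0.16 and neither passed. Of 7 neurosteroid and endozepine genes 6 were tested, 3 higher and 3 lower, and the neurosteroid enzyme gene Akr1c14 was low, at 1.49 CPM against 2.25 (log2 fold change -0.60, SE 0.25, adjusted p = 0.40, and -0.49 with the GC correction).

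Among themselves the alpha and beta genes varied together over the 8 libraries. Pearson's r between pairs of these 6 ran from 0.46 for Gabra5 and Gabrb1 to 0.91 for Gabra2 and Gabrb1, and the head-to-head pair Gabra4 and Gabrb1 had r of 0.63. With Gabrd, r ran from -0.39 to 0.17. These values describe 8 libraries that share depth, scaling and the GC trend. Among genes of at least 5 CPM, those most like the mean of the 7 were Abi2 (Pearson's r 0.99, Spearman's rho 1 over 8 libraries), Dclk1 (0.98 and 0.83), Ipcef1 (0.98 and 0.98), Kcnma1 (0.98 and 0.86) and Zyg11b (0.98 and 0.90). These r values are the highest picked from all genes of that level. Their transcripts hold 42.6% to 46.3% GC, within the range of the alpha and beta genes. That range is common: of 11326 genes of at least 5 CPM, 2243 hold 40% to 45% GC and 2939 hold 45% to 50%. The gene most like Gabrd was Cux1 (0.98 and 0.90).

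Markers of neighbouring tissue and of glia differed between libraries. The summed level of 10 striatal neuron markers was 327, 501, 513 and 612 CPM in overexpression replicates 1 to 4 and 473, 411, 326 and 541 CPM in wild type. All 10 had a fold change above 0 and none passed. Drd2, a defining marker, ran from 1.02 to 11.5 CPM in overexpression and from 1.53 to 11.7 CPM in wild type. Choroid plexus markers summed to 2037 CPM in wild-type replicate 4 and to 248 to 446 CPM in the other libraries. Most of the sum in the libraries labelled overexpression was Enpp2 (mean 267 CPM). Folr1, Aqp1 and Kcnj13 had means of 0.81, 0.83 and 0.51 CPM there. Ttr ran from 4.63 to 90.6 CPM in overexpression and from 2.41 to 982 CPM in wild type. Of 8 microglia markers 5 were higher and 3 lower, with a median log2 fold change of 0.16 and of 0.13 with the GC correction, and none passed. Their summed level was 395 to 496 CPM in overexpression and 381 to 431 CPM in wild type. The markers Csf1r (0.18), Tmem119 (0.23) and Cx3cr1 (0.14) had an unadjusted p under 0.05. Of 8 astrocyte markers 3 were higher and 5 lower, summing to 5679 to 6577 CPM and 5776 to 6648 CPM. Among them Gfap, which rises in reactive astrocytes, ran from 153 to 221 CPM in overexpression and from 117 to 163 CPM in wild type (log2 fold change 0.48, SE 0.16, adjusted p = 0.40, and 0.41 with the GC correction). Its highest library was overexpression replicate 2, whose Ino80e was at the wild-type level. Aldh1l1 and Aldoc had log2 fold changes of 0.076 and 0.092. The 5 lower markers, Slc1a2, Gja1, Aqp4, Sox9 and Slc1a3, stood at -0.076, -0.068, -0.065, -0.011 and -0.0066. The part of these glial markers in the values of the 7 genes was not tested. The part of striatal and choroid plexus tissue in the values of Gabra4 and Gabrd, which striatal and thalamic neurons are also known to express, was not tested. The summed interneuron markers overlapped between the groups, as given above. The largest parts of that sum were Cck (351 CPM in overexpression, 353 in wild type) and Lamp5 (197 and 212 CPM). Of the 10 interneuron markers 4 were higher and 6 lower, and none passed, with Sst at 0.098 and Pvalb at -0.12.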

How the data were processed

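The deposited table holds raw read counts per Ensembl gene, 1 column for each of 8 libraries, with 44762378 to 60490153 counts per library. Per the submitters' processing notes, the tools were STAR 2.7.10, featureCounts 2.0.3 and Trimmomatic 0.39, on mouse builds mm10 and GRCm38, with no role or order named. The libraries were made strand-specific, per the labels' protocols. The strand setting, the annotation release and the treatment of multi-mapping reads are not stated there. Symbols, exon lengths and transcript GC content came from GENCODE for GRCm38, matched by identifier (54409 matched, 37 did not). No library was a copy of another (chi-square per degree of freedom at least 9.07 between any pair).

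Genes were filtered with filterByExpr, scaled by TMM and tested with edgeR 4.0.16 (R 4.3.3), a robust quasi-likelihood F test of overexpression against wild type with Benjamini-Hochberg adjustment over all genes tested. The fit was tested on simulated data. SE is the fold change divided by the root of F, and intervals are 95%. The alternatives were other scalings and filters, DESeq2 1.42.0, limma-voom (limma 3.58.1), a fit that was not robust, a block on replicate number, leaving libraries out, and a GC correction, in which log2 CPM (prior count 2) was fitted per library on transcript GC content by a natural spline (5 degrees of freedom) and the fit entered as an offset. Groups came from the sample titles. The members and lists were chosen with earlier results of these data known. The text names all members, the other subunits, genes with the lowest p of each pathway list (at most 4), and the genes most like the members; some genes that this rule names are not reported here.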

Additional observations from a re-analysis of the deposited data

Results flagged for a closer look

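Gabra2 in wild-type replicate 2 stood at 52.4 CPM, far from the other wild-type libraries at 37.4 to 38.9 CPM: its gap to the nearest of them was 0.899 of the group's range, above Dixon's 95% critical value of 0.829 for 4 samples. It was the only one among 20 groups tested (7 genes and 3 ratios in each group of libraries), and chance flags about 1 in 20.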

How the results depend on the processing

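In each of 19 alternative fits all 7 genes kept the sign of their fold change and none passed an adjusted p of 0.05, nor did any pass 0.10 in the fit as reported. Gabra2 ranged from -0.31 to -0.13 and had the lowest adjusted p of all, 0.081, with no low-count filter. Gabra4 ranged from -0.15 to -0.010 and Gabrd from 0.055 to 0.19. The count of genes called over the whole table moved more, from 6 to 83 with no low-count filter, 44 with DESeq2, 2 with limma-voom, 2 without robust estimation, 1 without overexpression replicates 2 and 3, and 1 to 8 with a single library left out. The causes were not tested. The log2 ratio of Gabrd to Gabra4 ranged from 0.16 to 0.29 with a single library left out, that of Gabra5 to Gabra2 from 0.055 to 0.21, and that of Gabrb1 to Gabrb2 from -0.075 to 0.026, where it changed sign without overexpression replicate 3.

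The replicate numbers did not pair the libraries: deviations of same-numbered libraries correlated at -0.025, -0.071, 0.077 and 0.033 for numbers 1 to 4. With the replicate number as a block 1 gene was called, and 2 with the block and the GC correction, none of them a subunit gene. Under the block no ratio passed an exact sign-flip test, whose smallest p is 0.125. The 7 genes had at least 1652 counts in every library and SDs of 3.35% to 16.8% of the mean within groups; whether depth or this spread limited the calls was not tested.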
